A study of Mus musculus with 6 samples.

Results

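The 10 genes described here belong to the YAP-TEAD branch of the Hippo pathway, and comprise the coactivators Yap1 and Wwtr1 (which encodes TAZ), the DNA-binding factor Tead1, and the target genes Ctgf, Cyr61, Ankrd1, Amotl2, Ajuba, Axl and Lats2. They were taken by gene name from the deposited table of 54532 genes, which held all 10. RNA was sequenced from mouse T cells after co-culture with the ovarian cancer line ID8, which derives from mouse ovarian surface epithelium. In 3 libraries the ID8 cells had been pretreated with 40 µM cisplatin (cisplatin), and in 3 with PBS (control). The T cells of both groups were isolated from spleens of C57BL/6 mice, 6 to 8 weeks old, kept with IL-2 and pre-activated with anti-CD3/28 beads. The study's methods call the libraries of a group biological replicates, but neither they nor the labels say whether these were separate mice or separate cultures, so p-values measure the spread between these libraries only. The titles call the control libraries WT and the cisplatin libraries CIS, without saying whether WT stands for a genotype. Beyond this the labels name no genotype for either cell type, and no library of T cells or of ID8 cells alone was analysed here.

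The Hippo pathway is a kinase cascade in which MST kinases activate LATS kinases, and LATS kinases phosphorylate YAP and TAZ and so keep them out of the nucleus. When the cascade is off, YAP and TAZ enter the nucleus and bind TEAD factors, which recognise the DNA letters GGAATG and switch on genes for growth, matrix and adhesion. The pathway responds to cell density, attachment and stiffness and is best known from epithelial, mesothelial and stromal cells, and its targets include some of its own inhibitors.

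Because TEAD factors recognise GGAATG, the RefSeq promoter windows (GRCm38.p6, 250 bases before to 50 after a start site) were searched for it on both strands. A match on the opposite strand reads CATTCC, and no 2 matches in a window overlapped. Windows were matched for 8 of the 10 genes (not for Ctgf and Tead1). A match lay in a window of 8 of these 8 genes, and 16.6% of all 27025 genes with a window held at least 1. Counted from the start site, the match began at -141 in Yap1, -103 in Cyr61, -65 in Amotl2 and -233 in Axl. Ankrd1 had matches at -210 and -123, and Ajuba at -186 and -164. For Axl and Ajuba the bases after the RefSeq start were not found unbroken in GENCODE M21 transcripts, so their positions rest on RefSeq alone. Wwtr1 had 2 overlapping windows, in which the same letters lay at -136 and -170. In Lats2 the match began at base 5 of the transcribed part of 1 of its 2 windows. A match is a description of letters and not a bound site. The 250 bases before the start are shown for 1 effector and 2 targets whose windows overlapped no exon of GENCODE M21 and no part of the RefSeq gene, with the matches in capitals. They lie at chr3:57575911-57576160 (Wwtr1), chr3:145649986-145650235 (Cyr61) and chr14:54577662-54577911 (Ajuba), all on the minus strand, written 5′ to 3′.
Wwtr1: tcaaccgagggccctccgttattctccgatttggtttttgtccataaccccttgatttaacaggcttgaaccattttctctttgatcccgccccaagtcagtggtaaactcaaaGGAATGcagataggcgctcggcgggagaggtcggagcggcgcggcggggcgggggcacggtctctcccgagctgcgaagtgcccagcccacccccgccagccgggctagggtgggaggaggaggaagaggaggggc
Cyr61: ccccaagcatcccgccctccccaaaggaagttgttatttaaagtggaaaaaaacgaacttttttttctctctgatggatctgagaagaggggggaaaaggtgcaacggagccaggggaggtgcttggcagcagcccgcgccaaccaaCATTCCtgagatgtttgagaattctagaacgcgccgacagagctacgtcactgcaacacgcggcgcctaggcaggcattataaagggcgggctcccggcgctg
Ajuba: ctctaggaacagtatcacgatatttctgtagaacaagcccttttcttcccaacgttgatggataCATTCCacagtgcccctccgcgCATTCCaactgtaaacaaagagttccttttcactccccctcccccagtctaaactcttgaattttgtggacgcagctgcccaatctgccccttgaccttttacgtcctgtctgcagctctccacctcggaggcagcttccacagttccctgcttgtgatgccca

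Values are FPKM (fragments scaled to gene length and to a total for each library), which are per length, so levels can be compared between genes. The total was 1.03 to 1.05 times the library's reads on genes with cisplatin and 0.976 to 0.982 times in control. The deposited scaling thus differed between the groups beyond the number of reads. The groups were compared by limma on log2(FPKM + 0.1) over the 15874 genes that averaged 0.5 FPKM or more, with p-values adjusted over all of them by Benjamini-Hochberg. A gene was called where its adjusted p was under 0.05 and the groups differed 2-fold or more. Each library held 30606569 to 32169496 reads on genes, and each of the 10 genes had at least 149 reads in every library and at least 1.41 FPKM, so all 10 passed the filter in either group alone. No 2 replicates held the same values or agreed within sampling noise.

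All 10 genes were lower with cisplatin-pretreated ID8 cells at an adjusted p under 0.05 by limma, as were 29% of all tested genes, and 9 of the 10 were called lower against 12.8% of all tested genes. None was called higher, against 4.11% of all tested genes. Every control library lay above every cisplatin library for all 10, which held for 32.3% of tested genes. The median log2 fold change (cisplatin minus control) of the 10 genes was -2.25, and that of all tested genes was 0.03. The size of the difference ran from 19.2-fold for Ctgf to 1.30-fold for Lats2, the gene that was not called.

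**Figure D1:**
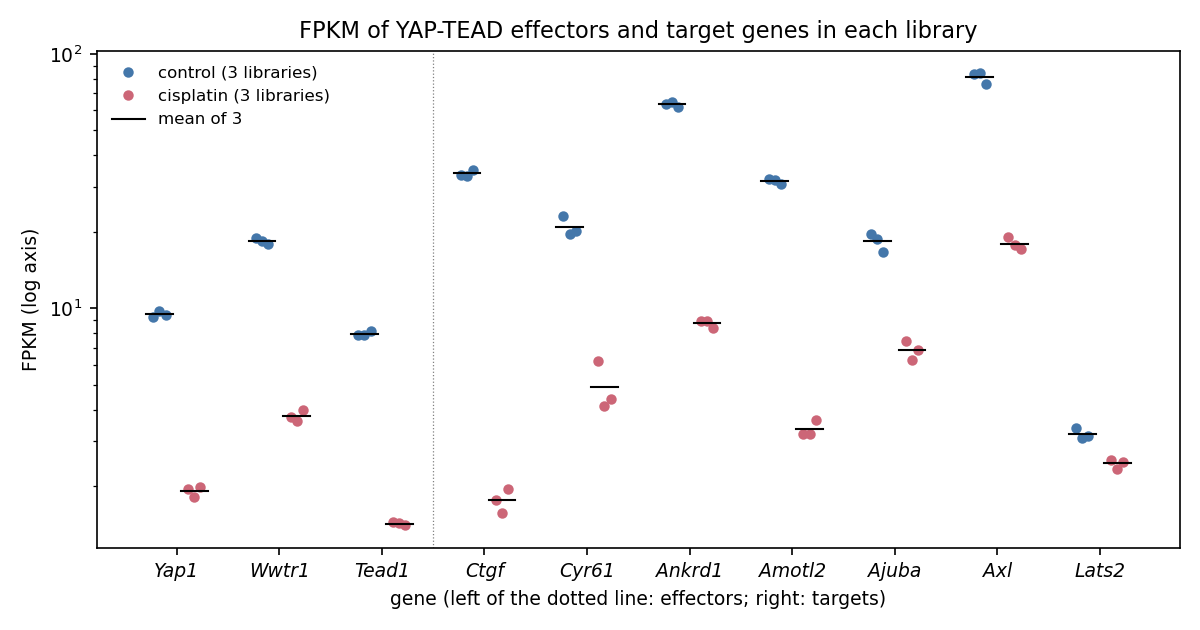
FPKM (log axis) of the 3 effectors and 7 target genes in the 3 control and 3 cisplatin libraries, 1 point per library with the mean of each group as a line. The control points sit above the cisplatin points for every gene, by the widest margin for Ctgf (33.9 against 1.76 FPKM) and the narrowest for Lats2 (3.21 against 2.46 FPKM).

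Both coactivators were lower by nearly the same amount. Yap1 (ENSMUSG00000053110, chromosome 9 from 7931999 to 8004596 of GRCm38, minus strand) had 9.21, 9.78 and 9.43 FPKM in the control libraries and 1.95, 1.81 and 1.98 FPKM in the cisplatin libraries. Its groups were far apart relative to their spread, with means of 9.47 ± 0.288 and 1.91 ± 0.0917 FPKM (SD, n = 3 each), and its log2 fold change was -2.25 (standard error, SE, 0.07, limma adjusted p = 6.3e-07). Wwtr1 (ENSMUSG00000027803, chromosome 3 from 57455649 to 57575910, minus strand), which encodes the YAP paralogue TAZ, had 18.9, 18.3 and 18.0 FPKM in control and 3.75, 3.61 and 3.98 FPKM with cisplatin. Its log2 fold change was -2.26 (SE 0.05, limma adjusted p = 3.0e-07). Wwtr1 transcript was thus the more abundant of the pair in all 6 libraries.
Tead1 (ENSMUSG00000055320, chromosome 7 from 112679318 to 112906807, plus strand), a DNA-binding partner of YAP and TAZ, had 7.88, 7.84 and 8.13 FPKM in control and 1.45, 1.43 and 1.41 FPKM with cisplatin. The replicates of each group lay close together, and its log2 fold change was -2.40 (SE 0.06, limma adjusted p = 4.7e-07). The log2 fold changes of these 3 effectors spanned only -2.40 to -2.25.

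The 7 target genes spread more widely, from log2 fold changes of -4.20 to -0.37. Ctgf (ENSMUSG00000019997, chromosome 10 from 24595442 to 24598683, plus strand), now named Ccn2, encodes a secreted matrix-associated protein and is among the most used readouts of YAP activity. It had 33.5, 33.1 and 35.1 FPKM in the control libraries and 1.76, 1.57 and 1.95 FPKM in the cisplatin libraries, or 2842 to 3080 reads against 149 to 181. This was the largest difference of the 10, a log2 fold change of -4.20 (SE 0.08, limma adjusted p = 1.5e-07).
Cyr61 (ENSMUSG00000028195, chromosome 3 from 145646976 to 145649981, minus strand), now Ccn1, encodes a secreted protein of the same CCN family and is likewise a standard target. It had 23.0, 19.5 and 20.1 FPKM in control and 6.20, 4.14 and 4.40 FPKM with cisplatin, where library 1 stood above the other two. Its log2 fold change was -2.08 (SE 0.15, limma adjusted p = 4.2e-05), the least precise of the 10. The 95% intervals of the log2 fold changes of these 2 CCN genes, -4.39 to -4.00 for Ctgf and -2.45 to -1.71 for Cyr61, did not overlap.
Ankrd1 (ENSMUSG00000024803, chromosome 19 from 36111965 to 36119844, minus strand), an ankyrin-repeat protein known from stretched muscle and a frequent YAP readout, had 63.7, 64.4 and 61.9 FPKM in control and 8.93, 8.91 and 8.34 FPKM with cisplatin. It fell 7.26-fold, with a log2 fold change of -2.85 (SE 0.04, limma adjusted p = 7.1e-08). Axl (ENSMUSG00000002602, chromosome 7 from 25757273 to 25788705, minus strand), a receptor tyrosine kinase for GAS6, had 83.6, 83.9 and 76.1 FPKM in control and 19.0, 17.7 and 17.1 FPKM with cisplatin. Axl was the most abundant of the 10 genes in both groups, and its log2 fold change was -2.17 (SE 0.06, limma adjusted p = 4.0e-07).

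Amotl2, Ajuba and Lats2 are targets that also act on the pathway. Amotl2 (ENSMUSG00000032531, chromosome 9 from 102716672 to 102733418, plus strand), an angiomotin-family protein that holds YAP in the cytoplasm, had 32.3, 31.9 and 30.8 FPKM in control and 3.22, 3.20 and 3.64 FPKM with cisplatin. It showed the second largest difference, a log2 fold change of -3.20 (SE 0.06, limma adjusted p = 1.4e-07). Ajuba (ENSMUSG00000022178, chromosome 14 from 54567472 to 54577558, minus strand), a LIM protein that binds and inhibits LATS kinases, had 19.5, 18.8 and 16.6 FPKM in control and 7.43, 6.28 and 6.86 FPKM with cisplatin. Its difference was the smallest of the 9 called genes, with a log2 fold change of -1.40 (SE 0.08, limma adjusted p = 1.5e-05).
Lats2 (ENSMUSG00000021959, chromosome 14 from 57689662 to 57758388, minus strand), a kinase that phosphorylates YAP and TAZ, had 3.37, 3.08 and 3.16 FPKM in control and 2.54, 2.35 and 2.49 FPKM with cisplatin. The groups did not overlap, but the log2 fold change was only -0.37 (SE 0.08, limma adjusted p = 0.0078), under the fold required for a call. After quantile normalization it was -0.17 (limma adjusted p = 0.12), so its difference depended on the scaling between libraries. Gm26440 and Gm20430, which averaged 1.11 and 1.07 FPKM, overlap Lats2 on the other strand, and whether reads were counted by strand is not given in the sources used here.

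In the control libraries the order of the 10 genes by mean FPKM was Axl, Ankrd1, Ctgf, Amotl2, Cyr61, Wwtr1, Ajuba, Yap1, Tead1 and Lats2, and among neighbours in this order the libraries overlapped only for Wwtr1 and Ajuba. With cisplatin the order was Axl, Ankrd1, Ajuba, Cyr61, Wwtr1, Amotl2, Lats2, Yap1, Ctgf and Tead1, and the libraries overlapped for Wwtr1 and Amotl2 and for Yap1 and Ctgf. Ctgf moved from rank 3 to rank 9, and Lats2 from rank 10 to rank 7.
Apart from the 0.1 added to each value, a ratio of 2 genes within a library does not depend on how libraries are scaled. Each gene was therefore set against Yap1 in the same library as a difference of log2(FPKM + 0.1), which gave 9 ratios, and 6 of them did not overlap between the groups, 4 lower and 2 higher with cisplatin. Of all other tested genes set against Yap1 in this way 94.2% did not overlap, 2.8% lower and 91.4% higher with cisplatin, since Yap1 itself was lower. For each of these 6 the two-sided exact permutation test gave p = 0.1, the smallest that 3 libraries against 3 allow, and 0.15 after Benjamini-Hochberg adjustment over the 9 ratios, so none can pass 0.05 in this design. Ctgf stood 1.83 ± 0.07 (SD, n = 3) log2 units above Yap1 in control and -0.12 ± 0.09 with cisplatin. Amotl2 went from 1.73 ± 0.06 to 0.78 ± 0.08 and Ankrd1 from 2.73 ± 0.04 to 2.13 ± 0.11 log2 units relative to Yap1. For Tead1 the highest cisplatin ratio, -0.320, lay only just under the lowest control ratio, -0.316. Lats2 went the other way, from -1.53 ± 0.11 to 0.35 ± 0.03, and Ajuba from 0.94 ± 0.13 to 1.79 ± 0.08. Wwtr1 stayed within the replicate spread, at 0.95 ± 0.07 in control and 0.95 ± 0.03 with cisplatin, and the ratios of Cyr61 and Axl to Yap1 also overlapped between the groups.

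**Figure D2:**
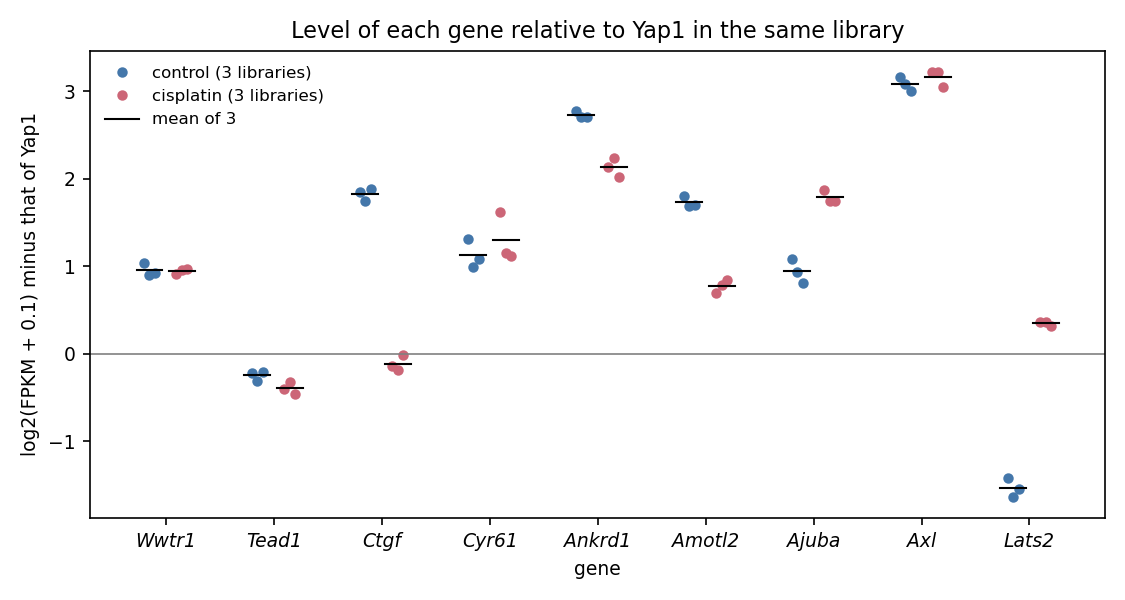
Level of each of the other 9 genes relative to Yap1 in the same library, as log2(FPKM + 0.1) minus that of Yap1, with 1 point per library and the group mean as a line. The control and cisplatin points of Ctgf, Amotl2, Ankrd1, Ajuba, Lats2 and, narrowly, Tead1 are apart, and those of Wwtr1, Cyr61 and Axl overlap.

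The libraries were labelled T cells, and markers of several cell types moved with the groups. T-cell markers summed to 1829 to 1936 FPKM in control and 2841 to 2909 FPKM with cisplatin, with 22 of 23 higher and 1 lower at an adjusted p under 0.05 by limma, and 27.5% of all tested genes were higher at that threshold. Markers of ID8 tumour cells (keratins and other epithelial, mesothelial and matrix genes, 16 in all) summed to 1569 to 1645 FPKM in control and 224 to 230 FPKM with cisplatin. Of the 13 tested, 12 were called lower, against 12.8% of all tested genes, with a median log2 fold change of -2.47. Krt7, Igfbp5 and Tpm2 averaged 0.06 to 0.12 FPKM and were not tested. The 6 fibroblast markers summed to 41.0 to 42.5 FPKM in control and 9.44 to 9.48 FPKM with cisplatin. Among them Dcn fell from 39.2 to 7.51 FPKM, while Pdgfra, Pdgfrb, Lum and Col3a1 averaged under the filter and Col3a1 was listed at 0 in every library. The 6 endothelial markers summed to 18.1 to 18.6 FPKM in control and 23.2 to 23.6 FPKM with cisplatin. Of the 3 tested, Pecam1 was higher at an adjusted p under 0.05 by limma, from 13.4 to 20.6 FPKM. The other 2 were lower, Vwf from 2.40 to 1.69 FPKM and Tek from 2.12 to 0.536 FPKM, and only Tek was called. Cdh5, Kdr and Tie1 averaged under the filter. All 7 B-cell markers were higher at an adjusted p under 0.05 by limma, with sums of 1648 to 1730 FPKM in control and 3559 to 3641 FPKM with cisplatin. Of 7 myeloid markers 4 were called higher, against 4.11% of all tested genes. At an adjusted p under 0.05 by limma 5 were higher, 1 (Cd14) lower and 1 (Cd68) neither. Cd14 went from 7.43 to 5.35 FPKM, and Cd68 had a log2 fold change of 0.004. The 7 summed to 63.9 to 68.3 FPKM in control and 119.6 to 136.8 FPKM with cisplatin, where Lyz2 went from 30.8 to 89.7 FPKM. In bulk RNA, fewer cells of a type and less RNA per cell cannot be told apart.

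The log2 fold changes of the 13 tested ID8 markers themselves ranged from -3.61 (Krt19) to -0.08 (Epcam), with a mean of -2.35. Of the 10 genes 9 lay within this range, and Ctgf lay below it. To set the 10 genes beside the average marker, each library was centred on the mean of its 13 tested markers, and the fit was repeated. This raises the log2 fold change of every gene by 2.35, so that 92.1% of all tested genes were higher at an adjusted p under 0.05 by limma and 2.19% lower, and 88.1% were called higher and 0.769% lower. Of the 10 genes 3 were higher at that threshold, 3 lower and 4 neither, while 1 was called higher and 1 lower. Ctgf remained called lower, with a log2 fold change relative to the marker mean of -1.84 (95% interval -2.05 to -1.64, limma adjusted p = 2.9e-07). Amotl2 and Ankrd1 lay below the marker mean, at -0.85 and -0.49 on the log2 scale (limma adjusted p = 1.1e-05 and 2.9e-05), although Krt19 and Wt1 fell further than Amotl2, with log2 fold changes as deposited of -3.61 and -3.25. Lats2 and Ajuba lay above the marker mean, by 1.98 and 0.95 log2 units (limma adjusted p = 1.4e-07 and 5.8e-06), as did Axl by 0.18 (limma adjusted p = 0.010), while Epcam, at -0.08 as deposited, lay above all 3. These intervals and p-values cover the spread between libraries and not that between markers. Among the 4 that were not distinguished from the marker mean, the 95% interval was -0.08 to 0.28 for Yap1, -0.05 to 0.24 for Wwtr1, -0.23 to 0.13 for Tead1 and -0.04 to 0.58 for Cyr61. The part of ID8 RNA in the fall of the 10 genes was not tested beyond this comparison.

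**Figure D3:**
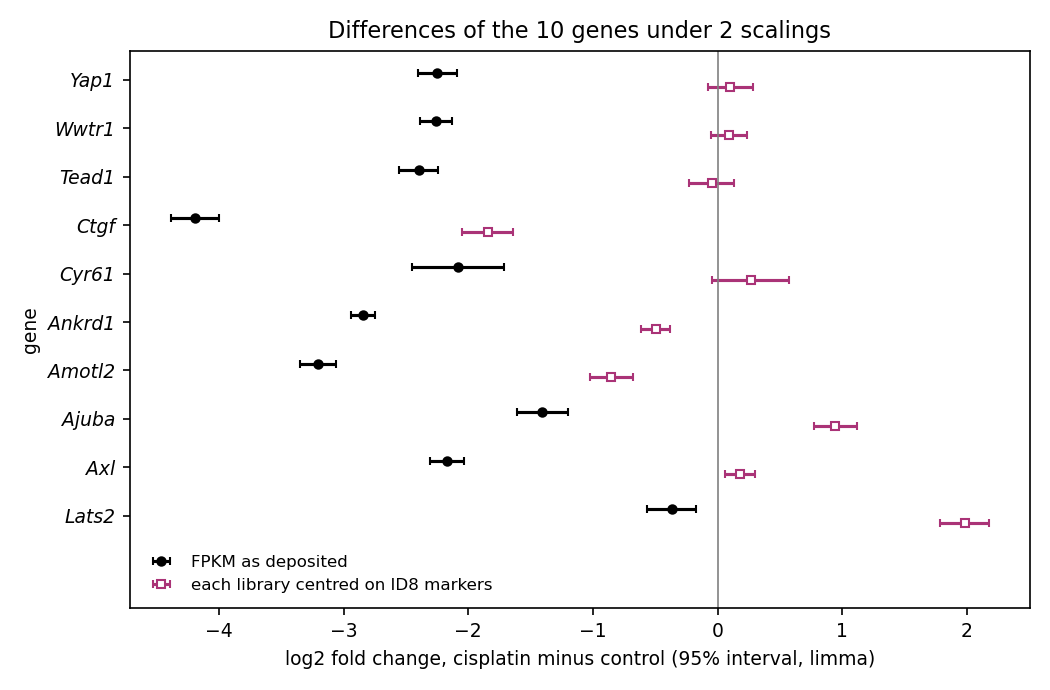
Log2 fold change (cisplatin minus control) of the 10 genes with its 95% interval from limma, on FPKM as deposited (filled circles) and with each library centred on the mean of its ID8 markers (open squares). As deposited all 10 lie below 0, whereas relative to the marker mean Ctgf, Amotl2 and Ankrd1 lie below 0, Lats2, Ajuba and Axl above, and the intervals of Yap1, Wwtr1, Tead1 and Cyr61 include 0.

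A second list held 16 further genes known as YAP targets. Of the 15 tested, 14 were lower at an adjusted p under 0.05 by limma and 0 higher, against 29% and 27.5% of all tested genes. Those called lower numbered 12, against 12.8% of all tested genes, and the median log2 fold change was -2.09. Crim1, a transmembrane protein that binds growth factors, had the highest mean of this list and went from 66.8 ± 2.95 to 15.6 ± 0.858 FPKM (SD, n = 3 each). Myof, a ferlin of membrane repair, had a log2 fold change of -2.46, and Ptpn14, a phosphatase that itself restrains YAP, of -2.39. The largest differences were those of Igfbp3, an IGF-binding protein (8.26 ± 0.674 against 0.746 ± 0.105 FPKM, SD, n = 3 each), and Tgfb2, a TGF-β ligand (log2 fold change -3.00), followed by F3, which encodes tissue factor (log2 fold change -2.67). Gadd45a, Arhgef17, Foxf2, Ccdc80, Fjx1 and Dock5 were also called lower, with log2 fold changes of -2.35 to -1.68. Asap1, a regulator of ARF GTPases, was not called at a log2 fold change of -0.20. Nuak2 and Nt5e, named after their values were seen, were not called either, with log2 fold changes of -0.87 and 0.07 (Nt5e limma adjusted p = 0.42). Rbms3, at a mean of 0.08 FPKM, was not tested. Centred on the ID8 marker mean, 0 of the 15 were called lower and 3 higher, where 88.1% of all tested genes were called higher. At an adjusted p under 0.05 by limma Igfbp3, Tgfb2 and F3 lay below that mean, at -0.96, -0.65 and -0.32. Crim1, Asap1, Dock5, Nuak2, Ccdc80, Nt5e and Foxf2 lay above it, and the rest were not distinguished from it. Over all tested genes 2.19% were lower and 92.1% higher at that threshold.

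**Figure D4:**
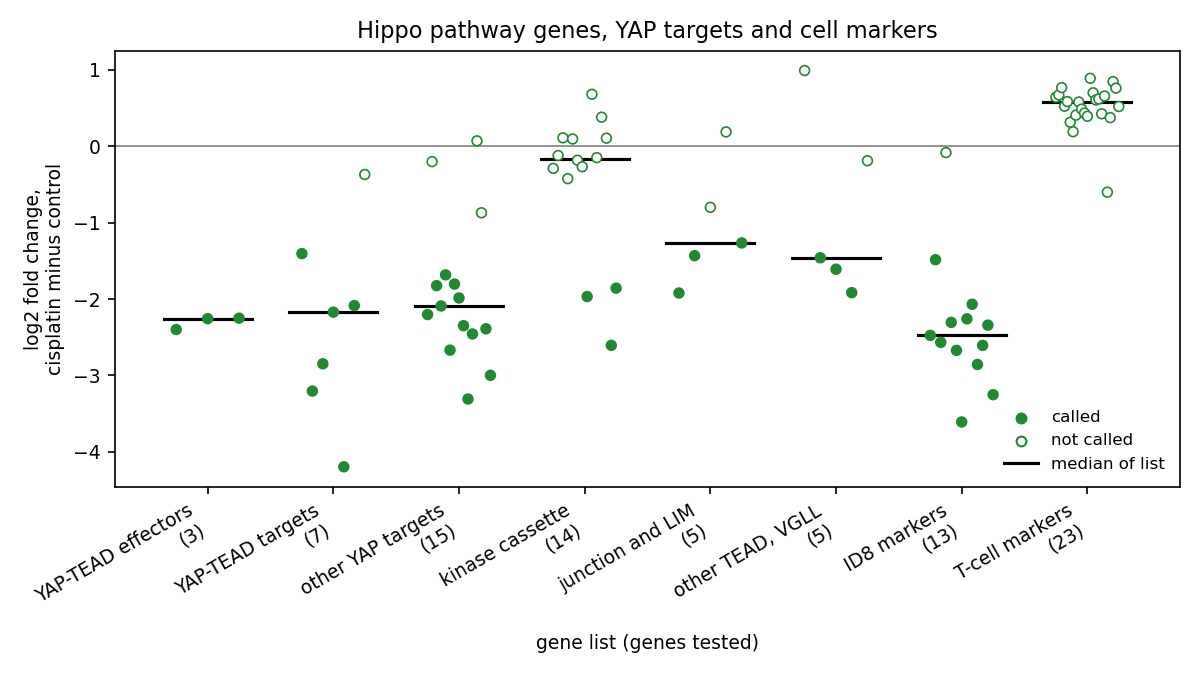
Log2 fold change (cisplatin minus control) of every tested gene in 8 lists, filled where called, with the median of each list as a line. YAP-TEAD effectors, both sets of targets and ID8 markers have medians of -2.26, -2.17, -2.09 and -2.47, the kinase cassette lies near 0 at -0.17, and T-cell markers lie at 0.58.

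The rest of the Hippo pathway was followed in a list of 27 genes, of which 24 were tested. At an adjusted p under 0.05 by limma 17 of them were lower, 5 higher and 2 neither, and 9 were called lower and 0 higher, with a median log2 fold change of -0.28. Over all tested genes these shares were 29% lower and 27.5% higher, with 12.8% called lower and 4.11% called higher. The 14 genes of the kinase cassette and its activators had a median of only -0.17, and 3 of them were called lower. Stk4 and Stk3, which encode the paralogous kinases MST1 and MST2, went in opposite directions. Stk4 had 54.9, 53.7 and 53.1 FPKM in control and 86.5, 85.2 and 87.8 FPKM with cisplatin, a log2 fold change of 0.68 (limma adjusted p = 2.9e-06) that was 0.17 when libraries were centred on the T-cell markers. Stk3 had 6.50, 6.87 and 6.18 FPKM in control and 1.48, 1.82 and 1.49 FPKM with cisplatin, a log2 fold change of -1.97 (limma adjusted p = 8.0e-06) that was 0.39 relative to the ID8 marker mean. Wwc1 and Wwc2, which encode KIBRA-family activators of LATS, had log2 fold changes of -2.61 and -1.86, and that of Wwc1 remained negative relative to the ID8 marker mean, at -0.25 (limma adjusted p = 0.0054), while that of Wwc2 turned to 0.50. Mob1a, a LATS cofactor, was at 55.9 FPKM in control and 60.4 FPKM with cisplatin (log2 fold change 0.11, and -0.40 when libraries were centred on the T-cell markers).
Of the junction, cadherin and LIM regulators 5 of 8 were tested and 3 were called lower. These were the angiomotin Amotl1 (log2 fold change -1.92), the atypical cadherin Fat1 (log2 fold change -1.43) and the LIM protein Wtip (log2 fold change -1.26). Limd1, a LIM protein related to Ajuba, had the highest mean of this list and a log2 fold change of 0.19, which was -0.33 when libraries were centred on the T-cell markers. Among the other TEAD and VGLL factors Tead4, Tead3 and Vgll3 were called lower, with log2 fold changes of -1.61, -1.46 and -1.92, from control means of 1.82, 0.901 and 1.11 FPKM. Vgll4, which competes with YAP for TEAD, was the most abundant of them at 15.3 FPKM in control and 13.5 FPKM with cisplatin. Of these called genes of the junction and TEAD lists, all 6 had positive log2 fold changes relative to the ID8 marker mean, of 0.43 to 1.09. With that centring 92.1% of all tested genes were higher at an adjusted p under 0.05 by limma. Vgll3, at 0.44, was not distinguished from the marker mean (limma adjusted p = 0.21). Tead2, named after its values were seen, had 0.619, 0.704 and 0.442 FPKM in control and 1.11, 1.36 and 1.30 FPKM with cisplatin. Its log2 fold change of 0.99 (limma adjusted p = 0.0087) lay just under the fold required for a call.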

How the data were processed

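RNA from the 6 co-culture libraries was poly-A selected and sequenced. The authors deposited FPKM values per gene, on mm10 per the labels. The submitters' processing notes name fastp, HISAT2 2.0.5 and featureCounts 1.5.0-p3, whereas the paper's methods name LifeScope for alignment and DESeq2 on counts for testing. FPKM times gene length came to whole multiples of 1 step per library (tolerance 0.1 read) for 100% of non-zero values, which gave the reads per gene. These cover counting error only. The coordinates of 9 of the 10 genes were the same in GENCODE M21 (GRCm38, the mm10 assembly). For Ankrd1 the deposited coordinates are given.

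Because FPKM are not counts, groups were compared on log2(FPKM + 0.1) by limma 3.58.1 in R 4.3.3 (lmFit, then eBayes with a trend), after removing genes under a mean of 0.5 FPKM. On that scale the difference of a low gene is understated. Linear folds are ratios of group means. The steps were tested first on simulated data in which 200 genes were changed. Those data held no shift in cell types or in the FPKM total between the groups, so the test does not cover such shifts. The members and lists were chosen with earlier results of these data known. All members were named, and from the other lists genes that were called and the 2 of highest mean FPKM. Alternatives were pseudocounts, filters, quantile normalization, centring on T-cell or ID8 markers, no trend, voom on the rebuilt reads, the replicate number as a block, and leaving out each library.

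Ratios and promoters were handled with python 3.11.15, scipy 1.17.1 and pandas 2.3.3, and figures with matplotlib 3.10.9. A total of 0 columns of other samples were in the table.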

Additional observations from a re-analysis of the deposited data

How the results depend on the processing

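The 9 calls among the 10 genes kept their number under 14 of the 16 alternatives, while the filter of a mean of at least 5 FPKM removed Tead1 and Lats2 and left 8. Leaving out 1 library at a time kept 9 called. Centred on the ID8 markers, 1 gene was called lower (Ctgf) and 1 higher (Lats2), and the log2 fold change was reversed for Axl (0.18), Cyr61 (0.27), Ajuba (0.95), Wwtr1 (0.10), Yap1 (0.10) and Lats2 (1.98). Other Hippo genes called lower numbered 5 at a pseudocount of 1, 2 at a mean of at least 5 FPKM and 0 centred on the ID8 markers. Those called higher numbered 16 with that centring, 1 at a pseudocount of 0.01, 1 after quantile normalization, 1 with limma's voom on the rebuilt reads, and 0 to 1 when a library was left out. Other YAP targets called lower numbered 7 at a mean of at least 5 FPKM and 0 centred on the ID8 markers, where 3 were called higher. The filter tests fewer genes, and the centring adds the same amount to every gene. Voom took the reads on genes as the library size and tested 18541 genes rather than 15874. For the pseudocounts, the quantile normalization and voom the cause was not tested.

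Over all tested genes, 2034 were called lower and 653 higher (75.7% lower). The numbers were 903 and 242 at a mean of at least 5 FPKM, 3423 and 161 centred on the T-cell markers (95.5% lower), and 122 and 13988 centred on the ID8 markers (0.865% lower). At a pseudocount of 1, 311 were called higher, and with voom 1128. After quantile normalization 64.6% of the calls were lower, and with voom 68.2%. The median of all tested genes was 0.03 as deposited, 0.16 after quantile normalization, -0.49 centred on the T-cell markers and 2.38 centred on the ID8 markers, against medians of -2.25, -2.11, -2.77 and 0.10 for the 10 genes.

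With the replicate number as a block, 9 of the 10 genes were called lower, 9 other Hippo genes and 12 other YAP targets. The deviations of same-numbered libraries from their group means had correlations of 0.02, -0.06 and -0.02. Whether same-numbered libraries share a mouse or a batch is not stated in the sources used here. Correlations over all tested genes cannot decide this. With 3 libraries a group, an exact permutation test of a single value cannot go below 0.1.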
